A study of Mus musculus with 6 samples.

Results

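The piRNA pathway was followed through 10 genes of the mouse oocyte transcriptome, *Piwil1*, *Piwil2*, *Piwil4*, *Ddx4*, *Mael*, *Mov10l1*, *Pld6*, *Pnldc1*, *Tdrkh* and *Asz1*, out of 53465 Ensembl genes in the deposited count table. The genes were chosen by symbol as members of 1 pathway, and the set was chosen on the comparison of quercetin with control, because *Pnldc1* differed between the groups in some tests. The difference between the groups is therefore given for these 10 genes as a description, with no p-value for any single gene and with counts past a threshold given only beside those over all genes. All 10 symbols matched an Ensembl gene with a row in the table, and 7 passed the filter on low counts.

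PIWI-interacting RNAs (piRNAs) are small RNAs of germ cells that guide PIWI proteins to transposon transcripts. A long single-stranded precursor is cut into pieces at the outer surface of mitochondria, the pieces are loaded onto a PIWI protein, and their 3' ends are then trimmed and methylated. The pathway is known mainly from the testis, where mouse males that lack one of its core genes are usually sterile, whereas females lacking it are usually fertile. In mouse oocytes, small interfering RNAs made by Dicer act on transposons beside piRNAs.

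The comparison rested on 6 libraries, 3 control and 3 quercetin. Each was made from a pool of 15 oocytes at the M II stage, taken from 3 female Kunming (KM) mice aged 9 to 10 months and matured in vitro. The quercetin pools were matured with 10 μM quercetin and the control pools with none. Quercetin was dissolved in DMSO, and whether the control medium held DMSO is not given in the sources used here. The mice were naturally aged, and oocytes of young mice were not analysed here. The labels do not say whether the pools of a group came from separate cultures, so the spread between them may be technical in part. Within a pool, fewer oocytes with an RNA and less of it in each oocyte cannot be told apart.

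Total counts ran from 7880467 to 9938743 per pool, and 3 counts, the smallest number taken as detection, corresponded to between 0.328 and 0.375 CPM, the count scaled to a common library size. CPM used TMM factors, which correct for differences in composition between libraries. All 10 oocyte markers were detected, with means over the pools from 267.6 CPM to 8544 CPM. Their spread between pools of a group was uneven. The coefficient of variation was 85.2% in control and 78.3% in quercetin pools for *Zp2*, and 2.67% and 11.2% for *Gdf9*. Of 13 markers of cumulus and granulosa cells, *Foxl2*, *Amh*, *Amhr2*, *Inhbb* and *Ptx3* had no count in any pool. The summed level of the 13 ran from 72.7 CPM to 89.4 CPM in control pools and from 93.2 CPM to 96.7 CPM in quercetin pools, and most of it was *Cyp19a1* (mean and SD of 3 pools, 64.1 ± 5.31 CPM for control and 74.4 ± 1.42 CPM for quercetin). The part of this difference in the results on the piRNA genes was not tested.

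Promoter windows from RefSeq, 250 bases before to 50 bases after the annotated start, were found for 8 of the 10 genes on GRCm38.p6, with 10 windows in all. A window each of *Ddx4*, *Piwil1* and *Piwil4* is shown because these genes span the range of levels described next, from the most abundant gene through the PIWI gene with most counts to a PIWI gene at background, with every CG dinucleotide in capitals. *Ddx4* lies on the minus strand of chromosome 13 (window chr13:112652261-112652560), *Piwil1* on the plus strand of chromosome 5 (chr5:128735996-128736295), and *Piwil4* on the minus strand of chromosome 9 (chr9:14740623-14740922). The *Piwil1* window lies inside the gene coordinates given below, which begin at 128702524, so it is not at their 5' end.
Ddx4: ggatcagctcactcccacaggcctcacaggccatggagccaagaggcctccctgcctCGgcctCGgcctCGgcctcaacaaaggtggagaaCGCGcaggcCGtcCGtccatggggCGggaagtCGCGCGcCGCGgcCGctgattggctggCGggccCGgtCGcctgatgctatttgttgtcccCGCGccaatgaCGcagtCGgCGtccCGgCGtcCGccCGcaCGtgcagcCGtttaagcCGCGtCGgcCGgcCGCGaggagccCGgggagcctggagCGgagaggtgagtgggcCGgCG
Piwil1: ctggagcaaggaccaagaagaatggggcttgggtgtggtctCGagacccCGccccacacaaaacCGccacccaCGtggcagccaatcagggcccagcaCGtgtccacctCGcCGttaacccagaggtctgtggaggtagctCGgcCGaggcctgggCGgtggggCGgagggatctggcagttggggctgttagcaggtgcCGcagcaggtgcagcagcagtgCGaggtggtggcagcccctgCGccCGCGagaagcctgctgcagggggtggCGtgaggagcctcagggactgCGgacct
Piwil4: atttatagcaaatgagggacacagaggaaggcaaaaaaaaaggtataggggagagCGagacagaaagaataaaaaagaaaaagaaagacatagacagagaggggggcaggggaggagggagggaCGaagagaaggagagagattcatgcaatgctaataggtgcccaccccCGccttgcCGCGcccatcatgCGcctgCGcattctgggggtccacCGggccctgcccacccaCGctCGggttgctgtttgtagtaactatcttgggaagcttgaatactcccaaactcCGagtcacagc

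The *Ddx4* window held 38 CG dinucleotides, more than in 95.05% of all 300-base windows of the table, where the median was 7. *Piwil1* had 18 and the *Piwil4* window had 11. A downstream *Piwil4* start had none in its window (chr9:14718338-14718637). The remaining windows, of *Pld6*, *Mov10l1*, *Tdrkh*, *Asz1* and *Mael*, held between 17 and 25. The letters TAACNG or CAACNG, the core bound by MYB proteins, were searched on both strands and occurred in 7 of the 10 windows and in 49.7% of all windows. They were absent from the windows of *Ddx4* and *Asz1* and from the *Piwil4* window shown.

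Levels between genes were compared as CPM per kb of merged exon length. *Ddx4*, the germ cell RNA helicase also called Vasa, was the most abundant of the 10, at 384 ± 44.0 CPM per kb in control pools and 518 ± 78.0 CPM per kb in quercetin pools (SD, n = 3). *Asz1*, which anchors the piRNA machinery at mitochondria, followed at 81.0 ± 6.44 and 70.5 ± 7.12 CPM per kb. *Ddx4* and *Asz1* together held between 95.7% and 97.65% of the counts of the 10 genes in every pool.

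A middle group held *Mael*, *Tdrkh* and *Piwil1*, at 5.24 ± 1.69, 3.87 ± 0.258 and 4.42 ± 0.543 CPM per kb in control pools. The ranges of these 3 genes over the 6 pools overlapped, so their order was not resolved. Lower still were *Pld6*, *Mov10l1* and *Pnldc1*, at 0.585 ± 0.225, 0.454 ± 0.187 and 0.634 ± 0.116 CPM per kb in control pools, and these overlapped as well. At the bottom, *Piwil2* had 0.0797 ± 0.0539 CPM per kb in control pools, and *Piwil4* had 1 count in 1 control pool. No pool of one of these tiers overlapped with the tier above it, except that *Pnldc1* in quercetin pools reached down to the levels of *Piwil2* and *Piwil4*.

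**Figure D1:**
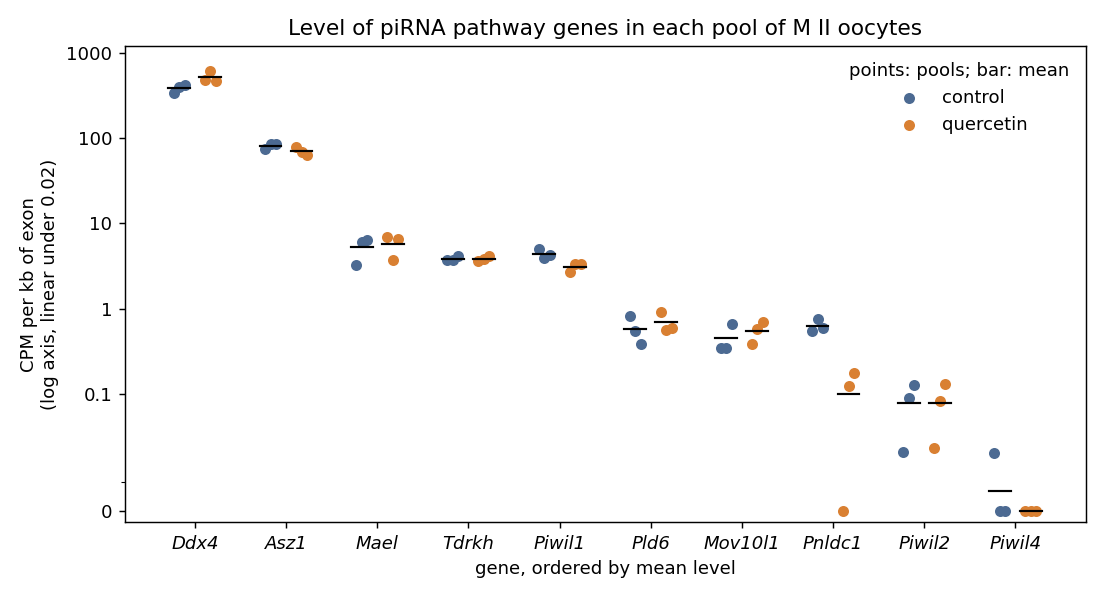
Level of each of the 10 piRNA pathway genes in CPM per kb of exon (vertical axis, logarithmic and linear under 0.02), with the genes ordered by mean level along the horizontal axis. Points are pools and bars are group means, and the levels fall from *Ddx4* (384 and 518 CPM per kb) to *Piwil4* (1 count in all pools together).

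Between the groups, the quercetin pools all lay above the control pools for *Ddx4*, and all lay below them for *Piwil1* and *Pnldc1*. They overlapped for *Asz1*, *Tdrkh*, *Mael*, *Mov10l1*, *Pld6* and *Piwil2*, and *Piwil4* was at background. Trimming and carrying of piRNAs, the steps of *Pnldc1* and *Piwil1*, are described with their partners first.

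The PIWI proteins are the Argonaute relatives that carry piRNAs. *Piwil1* (MIWI; ENSMUSG00000029423, chr5:128702524-128755474) was counted at 195, 143 and 168 in the control and at 94, 134 and 124 in the quercetin libraries. The highest quercetin pool lay under the lowest control pool, at means of 19.3 ± 2.37 CPM and 13.65 ± 1.65 CPM (SD, n = 3). For *Piwil1* the log2 fold change, quercetin over control in all that follows, was -0.50 (standard error 0.21).

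*Piwil2* (MILI; ENSMUSG00000033644, chr14:70372477-70429383) had counts of 1, 4 and 6 without quercetin against 1, 4 and 6 with it. *Piwil4* (MIWI2; ENSMUSG00000036912, chr9:14696230-14740733), the nuclear PIWI protein of fetal male germ cells, had a single count, in control replicate 1, and none with quercetin. *Piwil1* counts were between 20.7 and 195 times those of *Piwil2* in the same pool, with no correction for length. The 2 highest ratios, 195 in control replicate 1 and 94 in quercetin replicate 1, rest on 1 *Piwil2* count each, under the floor of 3. Neither *Piwil2* nor *Piwil4* had enough counts for the fit, and at this depth a decrease or a small increase in them was not detectable. At most 2.41% of the 31-base words in transcripts of these 3 genes occur in transcripts of other genes, so reads shared with another gene are few.

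The nucleases and the helicase of piRNA biogenesis are *Pld6* (Zucchini or MitoPLD), which cuts precursors at the mitochondrial surface, *Mov10l1*, an RNA helicase that binds the precursors, and *Pnldc1*, the exonuclease that trims their 3' ends. *Pnldc1* (ENSMUSG00000073460, chr17:12888729-12910230) was counted at 13, 17 and 14 in the control and at 0, 3 and 4 in the quercetin libraries. The groups did not overlap, with means of 1.69 ± 0.309 CPM for control and 0.266 ± 0.241 CPM for quercetin (SD, n = 3). Quercetin replicates 1 and 2 were at or under the floor of 3 counts, and replicate 3 was 1 count above it.

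The 44 control and 7 quercetin counts of *Pnldc1* gave a ratio of 6.16, control over quercetin after TMM scaling of the library totals. This ratio is a description and leaves out the spread between pools. Its log2 fold change was -2.57 (standard error 0.68), with -3.18 and -2.05 as the extremes when any 1 pool was dropped. *Pnldc1* passed the filter on low counts through the control pools alone, and quercetin counts of this size would not have let it in. These values are the ones on which the set was chosen.

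*Mov10l1* (ENSMUSG00000015365, chr15:88982909-89055152) stood at the same depth as *Pnldc1*, at 13, 12 and 25 counts without quercetin against 13, 22 and 25 with it. The groups overlapped, and the log2 fold change was 0.29 (standard error 0.42), with 0.69 without control replicate 3 and 0.09 without quercetin replicate 3 as the extremes. *Pld6* (ENSMUSG00000043648, chr11:59783897-59787645) had counts of 13, 8 and 6 without quercetin against 13, 9 and 9 with it, too few to be fitted. Its group means of 1.03 ± 0.395 CPM and 1.22 ± 0.350 CPM (SD, n = 3) also overlapped. Among the 3 genes at this level, the quercetin pools were all below the control pools for *Pnldc1* and overlapped with them for the others.

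The mitochondrial scaffolds *Tdrkh* and *Asz1* varied least between pools of a group among the 10 genes, with coefficients of variation from 6.61% to 10.1%. *Tdrkh* (TDRD2; ENSMUSG00000041912, chr3:94413273-94434668), the Tudor protein that brings PNLDC1 and PIWI proteins together, was counted at 206, 189 and 228 in the control and at 177, 216 and 215 in the quercetin libraries. Its group means were 23.75 ± 1.585 CPM for control and 23.65 ± 1.56 CPM for quercetin (SD, n = 3). This gave a log2 fold change of -0.01 (standard error 0.18). Since 36.7% of its exon length lies opposite *Oaz3*, reads of both genes cannot be told apart there without strand, although *Oaz3* itself had 6 to 22 counts per pool.

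*Asz1* (GASZ; ENSMUSG00000010796, chr6:18050964-18109061) had counts of 1861, 2000 and 2138 without quercetin against 1768, 1798 and 1541 with it. After TMM scaling the groups overlapped, through control replicate 1 at 208 CPM and quercetin replicate 1 at 221 CPM. The log2 fold change was -0.20 (standard error 0.14). By library size alone, every quercetin pool was below every control pool for *Asz1*. Under that scaling the median log2 fold change over all tested genes was also lower, at -0.11 in place of -0.03. The share of all genes whose groups separate under it was not counted.

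The germ granule factors are *Ddx4* and *Mael*. *Ddx4* (ENSMUSG00000021758, chr13:112598333-112652475) was counted at 9024, 10039 and 11264 in the control and at 11672, 16750 and 11914 in the quercetin libraries. All 3 quercetin values exceeded all 3 control values, and quercetin replicate 2 was the highest. Group means were 1159 ± 133 CPM for control and 1562 ± 235 CPM for quercetin (SD, n = 3). For *Ddx4* the log2 fold change was 0.43 (standard error 0.16). None of its exon length overlaps another annotated gene.

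*Asz1* counts were 0.206, 0.199 and 0.190 times the *Ddx4* counts in control pools and 0.151, 0.107 and 0.129 times in quercetin pools. This ratio within a pool does not depend on the scaling, and the groups did not overlap. *Ddx4* alone already separated the groups, so this ratio is a description and adds no separate result. How often the ratios of other gene pairs separate the groups was not tested. For *Asz1* over *Tdrkh* the ratios overlapped, at 9.03, 10.6 and 9.38 without quercetin against 9.99, 8.32 and 7.17 with it. *Mael* (Maelstrom; ENSMUSG00000040629, chr1:166201201-166238747), which acts in transposon silencing in germ cells, had counts of 51, 88 and 98 without quercetin against 97, 59 and 96 with it. One pool of each group, control replicate 1 and quercetin replicate 2, was low, and the log2 fold change was 0.13 (standard error 0.34).

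**Figure D2:**
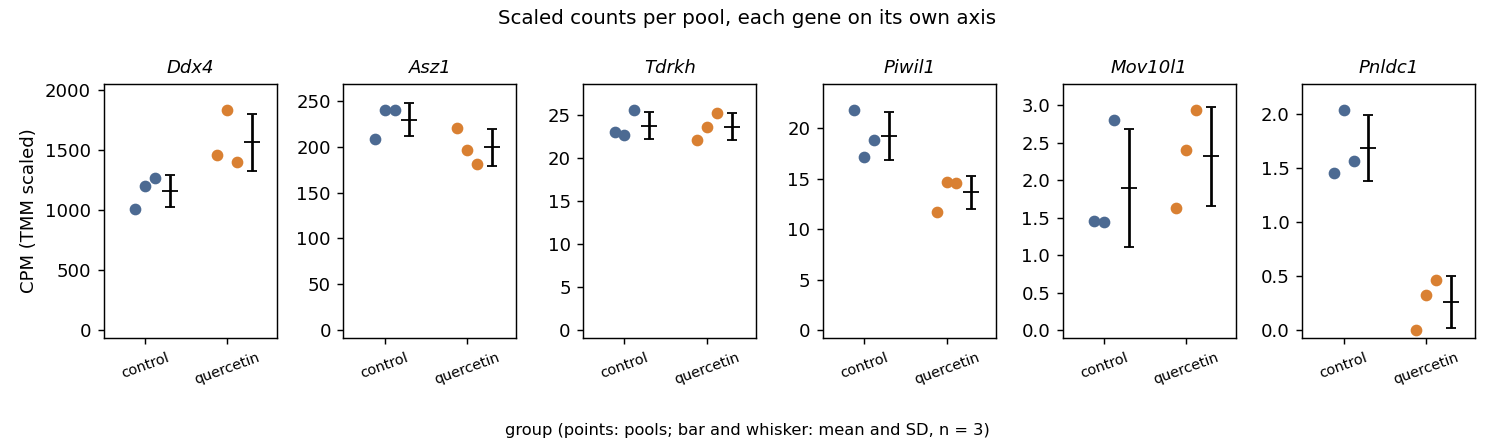
TMM-scaled CPM (vertical axes from 0, one scale per gene) of 6 piRNA pathway genes in control and quercetin pools. Points are pools, and bars with whiskers are mean and SD (n = 3). The groups do not overlap for *Ddx4* (1159 and 1562 CPM), *Piwil1* (19.3 and 13.65 CPM) and *Pnldc1* (1.69 and 0.266 CPM), and they overlap for *Asz1*, *Tdrkh* and *Mov10l1*.

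Of the 7 genes in the fit, the pools did not overlap, with quercetin lower, for 2 (*Piwil1* and *Pnldc1*), against 5.17% of all 11842 tested genes. For 1 (*Ddx4*) they did not overlap with quercetin higher, against 5.42% of tested genes. At an adjusted p under 0.05 in edgeR's quasi-likelihood test, 0 of the 7 were called, as were 0% of all tested genes, and 3 of the 7 had an unadjusted p under 0.05, against 4.03%. The same comparison chose the set, so these counts describe it and support nothing. Log2 fold changes were above 0 for 3 of the 7 and below 0 for 4, with a median of -0.01, beside -0.03 over all tested genes.

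Other genes of the pathway were taken from a list of 27 that the choice of the 10 did not include, and 26 of these had a row in the table. Of the 20 with enough counts, edgeR's quasi-likelihood test called 0 higher and 0 lower at an adjusted p under 0.05 (Benjamini-Hochberg, lowest adjusted p = 0.988), and 0 had an unadjusted p under 0.05. Over all tested genes these shares were 0% and 4.03%. DESeq2, edgeR's likelihood ratio test and limma-voom each called 0 as well. Log2 fold changes ran from -0.76 to 0.34 with a median of -0.15, and 16 were below 0. Over all 11842 tested genes, 6351 were below 0 and the median was -0.03. With control replicate 2 or quercetin replicate 1 left out, 12 of the 20 were below 0, and their median was -0.08 or -0.02.

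Highest in CPM, with no correction for length, were the Tudor domain proteins *Rnf17* (139.7 ± 6.66 CPM for control and 138 ± 29.9 CPM for quercetin, SD, n = 3), *Stk31* (75.35 ± 9.43 and 77.9 ± 15.4 CPM) and *Tdrd12* (77.0 ± 3.57 and 71.4 ± 25.0 CPM). *Tex15*, needed for transposon silencing in the nucleus of male germ cells, was at 58.4 ± 25.6 and 59.7 ± 32.3 CPM. *Tdrd1*, the Tudor partner of MILI, was counted at 347, 412 and 313 in the control and at 179, 216 and 426 in the quercetin libraries, with a log2 fold change of -0.36 (standard error 0.32). It was -0.84 without quercetin replicate 3 and between -0.46 and -0.16 without any other pool. Per kb of exon, *Gtsf2* (39.2 ± 6.405 and 37.2 ± 12.7 CPM per kb), named after its values were seen, had a higher mean than all 5. Groups overlapped for each of these 5 genes. Of the 7 Tudor genes in the fit none passed the test, and neither did any of all 11842 tested genes.

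*Henmt1*, which methylates the 3' end of piRNAs after trimming, was the 1 gene of the 20 whose groups did not overlap, with quercetin lower, against 5.17% of all tested genes, so this is no more than the share over all genes. It was chosen after its values were seen. *Henmt1* had counts of 55, 68 and 53 without quercetin against 43, 21 and 37 with it. Its log2 fold change was -0.76 (standard error 0.35), with an adjusted p = 0.988 in edgeR's quasi-likelihood test after Benjamini-Hochberg adjustment. Over the other settings the log2 fold change ran from -1.02 to -0.47 and the adjusted p from 0.442 to 1. Of its exon length, 14.65% lies opposite *Gm9857*, where reads cannot be told apart without strand.

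*Parn*, the poly(A) ribonuclease to which PNLDC1 is related, was counted at 89, 69 and 83 in the control and at 66, 68 and 101 in the quercetin libraries. Group means were 9.18 ± 0.851 CPM for control and 9.18 ± 2.35 CPM for quercetin (SD, n = 3). In edgeR's quasi-likelihood test *Parn* had a log2 fold change of -0.0011 (standard error 0.26) and a Benjamini-Hochberg adjusted p = 1.00. *Toe1*, another relative, had between 8 and 15 counts per pool and was not fitted. Whether *Pnldc1* and *Parn* differ in their response was not tested.

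**Figure D3:**
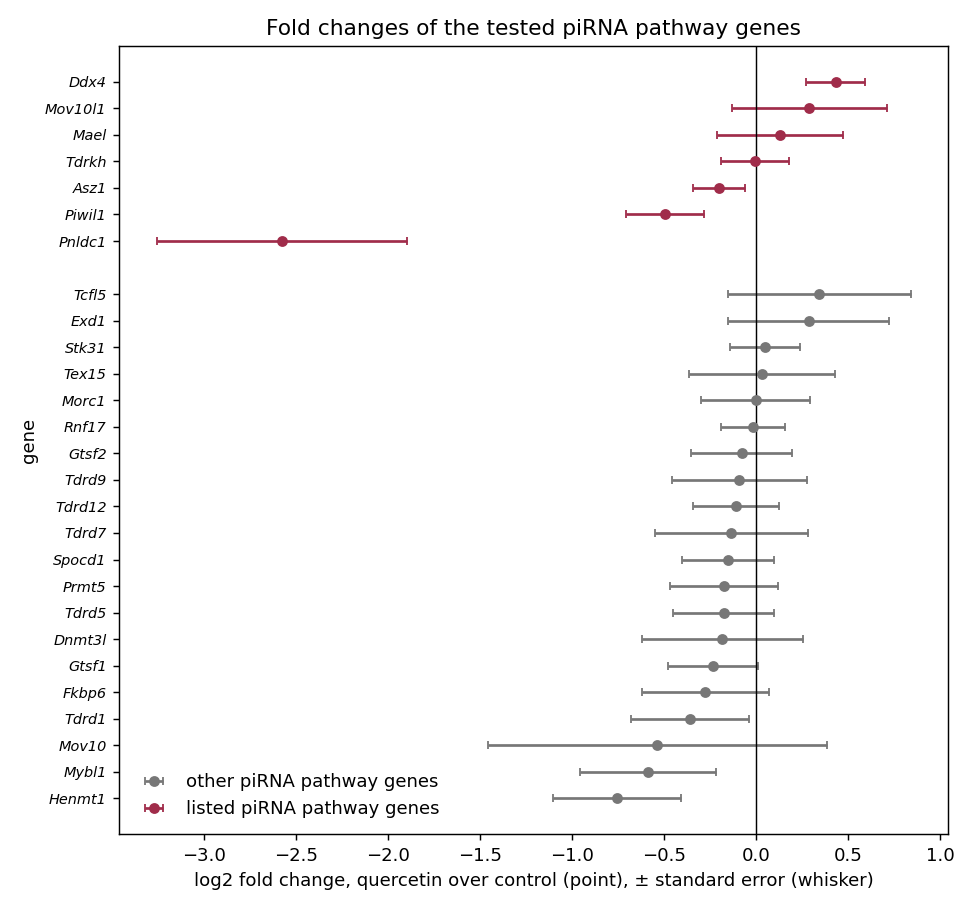
Log2 fold change, quercetin over control (horizontal axis), with its standard error (whiskers) for the 7 fitted genes of the set (red) and 20 other piRNA pathway genes (grey), one gene per line. *Pnldc1* stands at -2.57, the other genes of the set between -0.50 and 0.43, and the other pathway genes between -0.76 and 0.34.

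Around *Pnldc1* on chromosome 17, none of the 3 nearest genes in the fit passed the test. None of all 11842 tested genes did, so this sets the neighbours apart from no other gene. *Mrpl18*, 1119 bases away, had a log2 fold change of -0.01 (standard error 0.14), *Tcp1*, 5471 bases away, had -0.06 (standard error 0.17), and *Airn*, on the other side, had 0.19 (standard error 0.41). Their Benjamini-Hochberg adjusted p ran from 0.993 to 0.999 in edgeR's quasi-likelihood test. *Mas1*, next to *Airn*, had 1 count in all. An antisense gene, *AL589878.1*, lies opposite 5.41% of the *Pnldc1* exon length and had no row in the deposited counts, so it could not be analysed. Its reads cannot be told apart there from those of *Pnldc1* without strand.

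Across the 6 pools, the genes whose scaled log2 CPM followed *Pnldc1* most closely were *Wdr93*, *Rpl17-ps5*, *Raver2*, *Gm42560* and *Gm9493*. Their root mean square difference from *Pnldc1*, after each gene's mean was subtracted, was between 0.467 and 0.556 on the log2 scale, among 11789 genes. *Wdr93*, the closest, had counts of 12, 37 and 24 without quercetin against 2, 5 and 13 with it. *Rpl17-ps5* is a pseudogene, whose reads may be split with its parent gene. Within the pathway set, *Piwil1* was the most like *Pnldc1*, at 0.914, which ranked 764 of the 11789. These pools share libraries and depth, and the likeness is a description.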

How the data were processed

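RNA sequencing of 6 pools of mouse M II oocytes was analysed, 3 control and 3 quercetin, grouped by the sample labels. The authors made smart-seq HT libraries, used Hisat2 with GRCm38.91 for alignment, and deposited raw counts per Ensembl gene. The submitters' processing notes also name CASAVA 1.8 and TopHat2 2.0.6. The counting program and its settings for strand and for reads with several matches are not given in the sources used here.

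Symbols, exon lengths and coordinates came from GENCODE M21 on GRCm38. Counts were filtered by filterByExpr (minimum count 10), scaled by TMM and fitted with edgeR 4.0.16 (glmQLFit and glmQLFTest, no covariate, R 4.3.3), with Benjamini-Hochberg adjustment over 11842 genes. The standard error is the log2 fold change divided by the square root of F. The code was tested on simulated data. The biological coefficient of variation was 0.269. The 3-count floor covers counting error only, and reads carried no molecular identifiers.

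The members and lists were chosen with earlier results of these data known. All 10 members are named, and of the other pathway genes the 5 highest in mean CPM (not per length), any with an unadjusted p under 0.05, and *Parn* and *Toe1*. *Henmt1* lies outside this rule and was added after its values were seen. Genes most like *Pnldc1* were the 5 with the smallest root mean square difference among tested genes with a mean of at least 1 CPM (log2 CPM, prior count 2). Other settings tried were limma-voom (limma 3.58.1), DESeq2 1.42.0, the likelihood ratio test of edgeR, other scalings and filters, each pool left out, and the replicate number as a block.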

Additional observations from a re-analysis of the deposited data

How the results depend on the processing

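Genes called at an adjusted p under 0.05 numbered 0 in edgeR's quasi-likelihood test, 17 in DESeq2, 18 in edgeR's likelihood ratio test, 3 with any gene of at least 1 count, and 0 to 7 with any 1 pool dropped, 7 without quercetin replicate 1, 6 without quercetin replicate 3, 2 without control replicate 1 or 2, and 1 without quercetin replicate 2. It was 0 with limma-voom, either other scaling, the stricter filter and the replicate block. Of the piRNA genes of the set, edgeR's likelihood ratio test called 1, *Pnldc1*, and the other settings called 0, with *Pnldc1* given no adjusted p by DESeq2 and left out by the stricter filter. The set was chosen because *Pnldc1* differed in some tests, so this call repeats the choice and supports nothing. That test called 18 of all 11842 tested genes. Among the other pathway genes every setting called 0. At an unadjusted p under 0.05 their number was 0 in DESeq2, 1 in the likelihood ratio test, in limma-voom, with any gene of at least 1 count and without quercetin replicate 1, 4 without quercetin replicate 3, and 0 under the other settings. The share over all tested genes is given only for the quasi-likelihood test on all pools (4.03%). These counts therefore have no share to stand beside and are not read as a result. All 97 log2 fold changes of the set under other settings stayed within 1 SD of the pools, though *Mael* ran from -0.12 to 0.37 with a pool left out, *Tdrkh* from -0.05 to 0.06, *Mov10l1* from 0.09 to 0.69 and *Asz1* from -0.28 to -0.13. By library size alone the median log2 fold change over all genes was -0.11, in place of -0.03, and 18 of 20 other pathway genes were below 0.

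Signs turned, without a call, for 5 of the named genes outside the set (value of the report in brackets). *Rnf17* (-0.016) was at 0.0013 in DESeq2 and with its size factors, *Stk31* (0.049) at -0.027 and *Tex15* (0.031) at -0.027 by library size alone, *Tex15* at -0.011 in limma-voom and -0.013 with the replicate block, and *Parn* (-0.0011) at 0.016 in DESeq2 and with its size factors and at 0.0078 without the filter. With a pool left out, *Rnf17* ran from -0.21 to 0.076, *Stk31* from -0.101 to 0.184, *Tdrd12* from -0.43 to 0.062, *Tex15* from -0.51 to 0.451 and *Parn* from -0.227 to 0.13. Same-numbered pools correlated in their deviations by 0.296, 0.101 and -0.0303, and control replicate 2 correlated best with quercetin replicate 3 (0.176), so the numbers were not read as pairs. With the replicate block, 0 genes were called. Depth limited the fit to genes of about 10 counts or more in a group's pools, which *Pld6*, *Piwil2* and *Piwil4* did not reach.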
